A study of Homo sapiens with 12 samples.

Results

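Kasumi-1 is a human cell line from an acute myeloid leukaemia, a cancer of blood precursor cells blocked on the way to mature granulocytes. The data described here are the transcriptome of this line as read in 3 control libraries, named control 1, control 2 and control 3. They are 3 of the 12 libraries of the series, chosen because their labels give scramble control short hairpin RNA (shRNA) and no antibody (input), and every one of the 27411 genes listed in the expression table was kept. The cells are labelled wild type in genotype, and all 3 libraries share the scrambled hairpin, its stable transfection and puromycin at 2 µg/ml, which began 48 h after the hairpin and lasted at least 24 h, so untreated Kasumi-1 cells are not represented. They grew in RPMI medium with 10% fetal calf serum. Poly(A) RNA was purified from 50 µg of total RNA and fragmented, and the input fraction was sequenced without antibody enrichment. The labels do not say whether the 3 libraries came from separate cultures, so the spread given as SD (n = 3) may be technical. Levels are FPKM, fragments per kilobase of gene and 1000000 fragments as the authors deposited them, so they may be compared between genes. Where 3 values are given they are those of controls 1, 2 and 3 in that order, and a bracket after them, or a value with ±, gives their mean and SD (n = 3). In such bulk RNA, fewer cells of a type and less RNA per cell cannot be told apart.

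The line is known for the translocation between chromosomes 8 and 21 that joins RUNX1, the DNA-binding subunit of core binding factor, to the corepressor RUNX1T1 (also called ETO). The fusion protein keeps the DNA-binding domain, recruits corepressors to RUNX1 target genes and is known to interfere with CEBPA, the factor that drives granulocyte maturation. Leukaemias with this fusion usually keep an early granulocytic look, with the stem and progenitor antigen CD34, the receptor KIT and the granule enzyme myeloperoxidase, and often carry B-cell antigens.

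The summed FPKM of the libraries lay between 182511 and 186230, and their depth is unknown. Pearson's r of log2(FPKM + 1) across the 11281 genes of mean FPKM 1 or more was between 0.985 and 0.989 for the 3 pairs of libraries, a description over genes, which are not independent replicates. No pair shared more than 1 identical value above 0, so no library was a copy of another, and each was counted as 1 sample. This cannot show whether they came from separate cultures. Control 3 stood somewhat apart from the other two: its mitochondrially encoded messages were higher by a median of 1.08 on the log2 scale, and the median coefficient of variation (CV, SD over mean) was 7.45% with it and 3.91% without it. Values are therefore given per library. A list of 12 myeloid progenitor genes was set beside the label. Of these, 12 of 12 were at 1 FPKM or more in every library, against 39.4% of all genes, with a median of 48.3 FPKM. The list was chosen with earlier results of these data known, so it is no independent check of the label.

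A gene was called expressed when it was listed at 1 FPKM or more in each of the 3 libraries, and 10788 of the 27411 genes (39.4%) were. This share is the background for every count of expressed genes in a list. Another 2111 genes were listed at 0 throughout, and 7877 more had a mean under 0.1 FPKM. The RNA was concentrated in few genes: the 230 genes with a mean of 100 FPKM or more made up 0.839% of the listed genes and held 33.9% of all FPKM. The 3504 genes between 10 and 100 FPKM held a further 47.5%. The 16130 genes with a mean under 1 FPKM, most of the table, held 1.40%.

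**Figure D1:**
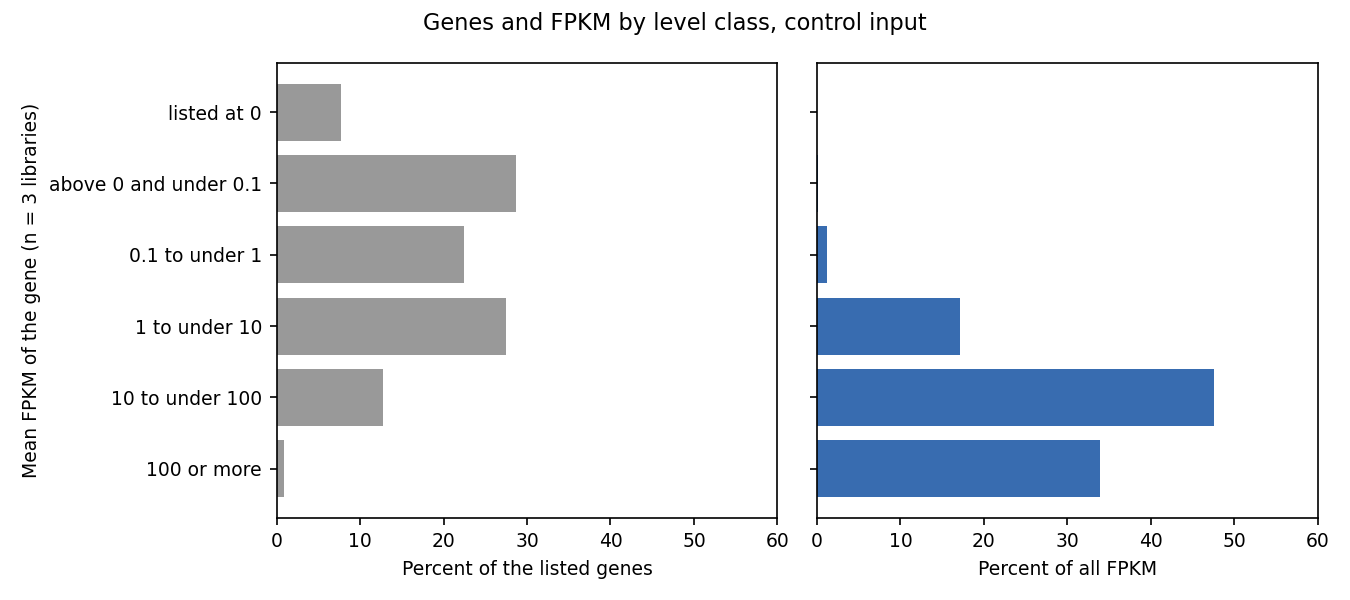
Percent of the listed genes (left, grey) and percent of all FPKM (right, blue) in 6 classes of mean FPKM over the 3 control input libraries. The 230 genes at 100 FPKM or more are 0.839% of the genes and hold 33.9% of the FPKM.

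The most abundant message was EEF1A1, the elongation factor that brings aminoacyl-tRNA to the ribosome, at 2505, 2575 and 2467 FPKM (2515 ± 55.0). Second was MPO (chromosome 17, 58269855 to 58280935 in the deposited table, which names no genome build), the myeloperoxidase of primary granules, at 1403, 1416 and 1296 FPKM (1372 ± 65.9). GAPDH, a glycolytic enzyme, followed at 1222, 1232 and 1122 FPKM (1192 ± 60.7), and the ratio of MPO to GAPDH was 1.15 ± 0.00344 (SD, n = 3), so a lineage gene exceeded a classic housekeeping gene in each of the 3 libraries. Of the 20 most abundant genes with a symbol, 9 encode proteins of the ribosome and 4, EEF1A1 included, are elongation factors or a copy of one. EEF2, the translocase of the ribosome, was at 901, 917 and 808 FPKM (875 ± 58.9). The first ribosomal protein in the order was RPL41, the shortest ribosomal protein, at 1124, 1123 and 930.1 FPKM (1059 ± 112).

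The rest of these 20 genes lie outside translation. KIT (chromosome 4, 54657918 to 54740715 in the same table), the receptor for stem cell factor, ranked 12 of all genes at 701, 716 and 778 FPKM (732 ± 40.8). CALR, a calcium-binding chaperone of the endoplasmic reticulum, was at 804, 763 and 736 FPKM (768 ± 34.6), and HSP90AB1, the constitutive cytosolic HSP90, at 629, 629 and 676 FPKM (645 ± 27.4). FTL, the light chain of ferritin, which stores iron, was at 633, 651 and 649.7 FPKM (644 ± 10.0), and PTMA, a small acidic nuclear protein, at 674, 688 and 696 FPKM (686 ± 10.9). Within the 20 genes the CV ran from 1.56% for FTL to 11.2% for EEF1G, an elongation factor subunit. Control 3 held the lowest value for 15 of the 20 and the highest for 4, and KIT and HSP90AB1 were among those 4. Together the 20 highest genes of each library held 10.1%, 10.3% and 9.35% of all FPKM in controls 1, 2 and 3.

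Part of this list cannot be read as 1 gene each. EEF1A1P5, a processed copy of EEF1A1 on chromosome 9, was listed at 697, 742 and 663 FPKM (700.4 ± 39.6), and pseudogenes as a class held 6.09%, 6.35% and 5.90% of the FPKM. RPS28P7 and RPL3P4, copies of ribosomal protein genes, stood at 413 ± 5.01 and 298 ± 24.4 FPKM (SD, n = 3). Reads from near-identical copies cannot be assigned to a single gene with certainty, so the levels of such copies and of their parents are uncertain.

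Primary granules, also called azurophil granules, are made at the promyelocyte stage and carry myeloperoxidase and serine proteases. Of 16 listed genes tied to these granules, 14 were expressed, with a median of 17.3 FPKM, and 4 more had no matching row. In every library 9 were at 10 FPKM or more, against 12.7% of all genes. Together the 16 genes held 1.12%, 1.13% and 1.04% of the FPKM in the 3 libraries. After MPO, the highest was SERPINB1 at 197, 202 and 224 FPKM (207 ± 14.2). It encodes a cytosolic inhibitor of neutrophil serine proteases and is counted in that share. CTSG, the protease cathepsin G, was at 191, 192 and 168 FPKM (184 ± 13.3). RNASE2, a ribonuclease best known from eosinophils, was at 96.4, 98.8 and 90.3 FPKM (95.1 ± 4.39).

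The other azurophil serine proteases were lower and far apart. PRTN3, proteinase 3, was at 47.9, 45.9 and 43.7 FPKM (45.8 ± 2.08), and AZU1, the protease homologue azurocidin, at 14.03, 12.2 and 12.9 FPKM (13.0 ± 0.927). PRSS57, a further granule protease, was at 21.7, 22.9 and 20.1 FPKM (21.6 ± 1.41). ELANE, neutrophil elastase, was the lowest of the 5 at 1.56, 1.87 and 1.12 FPKM (1.52 ± 0.377), although it lies in a cluster with PRTN3 and AZU1 on chromosome 19. As a share of the summed FPKM of these 5 proteases, CTSG held 69.1 ± 0.715% and ELANE 0.566 ± 0.113% (SD, n = 3). The order CTSG, PRTN3, PRSS57, AZU1, ELANE was the same in the 3 libraries.

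Other contents of the same granules ranged widely. CD63, a membrane protein of these granules, was at 34.7 ± 1.55 FPKM, CTSC, the protease that activates the others, at 22.7 ± 0.691 FPKM and CST7, a cystatin, at 6.16 ± 0.395 FPKM. BPI, an antibacterial protein, was at 3.74, 3.58 and 3.92 FPKM and LYZ, lysozyme, at 1.002, 0.808 and 0.717 FPKM in controls 1, 2 and 3. SRGN, the proteoglycan core that packs granule proteins, was at 4.59, 5.18 and 5.28 FPKM. DEFA4, a defensin made at the end of this stage, was listed at 0 in the 3 libraries. Of 9 genes of later granules and of mature neutrophils, 0 were expressed. Another 7 genes of that list had no matching row and were not analysed. LTF, lactoferrin of secondary granules, was listed at 0 throughout, S100A8 was listed at 0 in controls 2 and 3, and S100A9 was at 0, 0.243 and 0.254 FPKM. OLFM4, a glycoprotein of secondary granules, had the highest level of the 9 at 0.866, 0.938 and 1.51 FPKM.

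The promoters of these granule genes were set beside those of abundant genes outside the granule, because the groups differ in the density of CG dinucleotides, the sites of DNA methylation. The sequences are the 250 bases before the RefSeq gene start (GRCh38.p14), on the strand of the gene, with CG in capitals. CTSG (chr14:24576251-24576500, minus strand) and RNASE2 (chr14:20955237-20955486, plus strand) are granule genes, KIT (chr4:54657707-54657956, plus strand) is the surface receptor, EEF1A1 (chr6:73521033-73521282, minus strand) is the most abundant gene, and CD38 (chr4:15778078-15778327, plus strand) is a surface enzyme that was nearly silent here.
CTSG: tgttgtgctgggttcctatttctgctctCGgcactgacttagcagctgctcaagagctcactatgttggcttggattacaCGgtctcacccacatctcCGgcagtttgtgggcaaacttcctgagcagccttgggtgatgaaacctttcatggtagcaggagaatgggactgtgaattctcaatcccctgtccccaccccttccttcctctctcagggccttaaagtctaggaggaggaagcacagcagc
RNASE2: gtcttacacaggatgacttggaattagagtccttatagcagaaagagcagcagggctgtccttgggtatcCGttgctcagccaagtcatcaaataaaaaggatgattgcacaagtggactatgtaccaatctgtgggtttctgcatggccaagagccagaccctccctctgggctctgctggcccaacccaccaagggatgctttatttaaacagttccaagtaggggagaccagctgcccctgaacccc
KIT: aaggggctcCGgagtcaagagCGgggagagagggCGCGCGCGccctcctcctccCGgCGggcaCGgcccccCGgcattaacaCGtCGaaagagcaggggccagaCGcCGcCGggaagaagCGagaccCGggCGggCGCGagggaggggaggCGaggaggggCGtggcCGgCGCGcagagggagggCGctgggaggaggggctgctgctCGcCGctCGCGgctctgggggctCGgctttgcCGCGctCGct
EEF1A1: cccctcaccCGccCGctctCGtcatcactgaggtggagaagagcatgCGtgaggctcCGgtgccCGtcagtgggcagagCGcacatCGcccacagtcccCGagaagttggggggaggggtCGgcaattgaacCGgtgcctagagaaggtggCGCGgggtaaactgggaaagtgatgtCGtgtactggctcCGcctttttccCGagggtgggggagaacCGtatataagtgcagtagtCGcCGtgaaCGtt
CD38: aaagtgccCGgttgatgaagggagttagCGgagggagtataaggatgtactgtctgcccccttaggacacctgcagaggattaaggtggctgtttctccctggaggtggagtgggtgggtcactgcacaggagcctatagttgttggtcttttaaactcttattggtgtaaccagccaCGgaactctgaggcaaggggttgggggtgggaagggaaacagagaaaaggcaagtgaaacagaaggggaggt
CTSG held 3 CG dinucleotides and RNASE2 held 1, whereas KIT held 34 and EEF1A1 held 20. CD38, at 0.0973, 0.0558 and 0.0535 FPKM, held 3, so a promoter poor in CG stood before both a gene of mean 184 FPKM and a gene under 0.1 FPKM. Over the 9633 genes with 1 promoter entry and 1 matching row, 21.1% had fewer than 10 CG in the 250 bases. Of the 8 primary granule genes with such an entry 5 had fewer than 10, and of 15 myeloid surface genes 14 had, while of 29 large and 24 small ribosomal subunit genes 0 and 1 had.

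The transcription factors showed both subunits of core binding factor and its fusion partner at like levels. RUNX1, on chromosome 21, was at 23.2, 22.6 and 25.6 FPKM (23.8 ± 1.60). CBFB, the subunit that stabilises RUNX proteins on DNA, was at 17.7, 18.0 and 20.5 FPKM (18.7 ± 1.51). RUNX1T1, which normal myeloid cells are known to make little of, was at 17.7, 17.0 and 18.2 FPKM (17.6 ± 0.579), and its ratio to RUNX1 was 0.742 ± 0.0293 (SD, n = 3). The gene-level values do not separate the fusion transcript from the normal RUNX1 allele, and fragments of the fusion are split between the rows of RUNX1 and RUNX1T1. RUNX2 and RUNX3, paralogues of RUNX1, held 20.6 ± 0.980% and 5.70 ± 0.836% of the summed RUNX level (SD, n = 3). The other members of the ETO family were lower, CBFA2T2 at 3.39 ± 0.392 and CBFA2T3 at 1.31 ± 0.153 FPKM.

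Of 24 genes of stem and progenitor cells, mostly transcription factors or their cofactors, 18 were expressed (75%, against 39.4% of all genes). The list also holds SMIM24 and MSI2, which are not transcription factors, and both were among the 18. MYB, which sustains immature blood cells, led at 89.99, 91.8 and 93.2 FPKM (91.7 ± 1.63). LYL1, a helix-loop-helix factor of early progenitors, was at 41.0, 39.1 and 38.6 FPKM (39.6 ± 1.24), and LMO2, the bridging protein that pairs with it, was at 32.9, 34.2 and 32.1 FPKM (33.0 ± 1.04). The ETS factors ERG and FLI1 were at 22.4 ± 0.549 and 23.6 ± 0.752 FPKM. GATA2, which maintains progenitors, was lower at 5.03, 5.76 and 4.84 FPKM (5.21 ± 0.488), and TAL1, which also pairs with LMO2, was at 7.16 ± 0.241 FPKM. HOXA9 and MEIS1, high in many other acute myeloid leukaemias, were at 0.109, 0.0786 and 0.145 FPKM and 0.0318, 0.0343 and 0.0475 FPKM in controls 1, 2 and 3, and HOXA9 overlaps HOXA10 on the same strand. MECOM, the EVI1 locus, was listed at 0 in the 3 libraries. The HOXA cluster was uneven, since HOXA5 was at 4.15 ± 0.221 FPKM.

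Of 15 factors of the myeloid branch, 13 were expressed. MYC, which drives growth, was the highest at 119, 115 and 111 FPKM (115 ± 4.14), and MAX, its obligate partner, was at 15.1, 14.8 and 15.6 FPKM (15.1 ± 0.411). SPI1 (PU.1), the master factor of the myeloid branch, was at 58.7, 59.4 and 57.8 FPKM (58.6 ± 0.786). GFI1, a repressor needed for neutrophil development, was close to it at 59.2, 56.1 and 61.5 FPKM (58.9 ± 2.72). The CEBP family, which carries out granulocyte maturation, was led by CEBPG, a short member known to lack an activation domain, at 21.1, 20.3 and 22.5 FPKM (21.3 ± 1.12). CEBPA was the lowest of the 5 at 3.03, 2.78 and 3.07 FPKM (2.96 ± 0.158), and SPI1 was 19.8 ± 1.33 times higher. CEBPE, which acts late in granulocytes, was at 4.78, 5.79 and 4.78 FPKM (5.12 ± 0.583). CEBPG held 46.6 ± 1.13% and CEBPA 6.48 ± 0.274% of the family's summed level (SD, n = 3). IRF8 and KLF4, factors of the monocyte branch, were at 0.103, 0.251 and 0.165 FPKM and 0.0332, 0.0613 and 0.0554 FPKM.

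Factors of other lineages were low. Of 11 such genes 1 was expressed, and it was PAX5, the master factor of B cells, at 2.54, 2.65 and 2.79 FPKM (2.66 ± 0.127). POU4F1, a neural homeobox factor known from leukaemias with this fusion, was at 7.07, 6.72 and 7.93 FPKM (7.24 ± 0.619). Among genes known to accompany the fusion, CCND2, a D cyclin, was at 21.2 ± 1.61 FPKM, LAT2, a signalling adaptor, at 19.8 ± 0.553 FPKM, and the tumour antigen PRAME at 4.27 ± 0.326 FPKM. NCAM1 (CD56) was listed at 0 in controls 2 and 3.

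**Figure D2:**
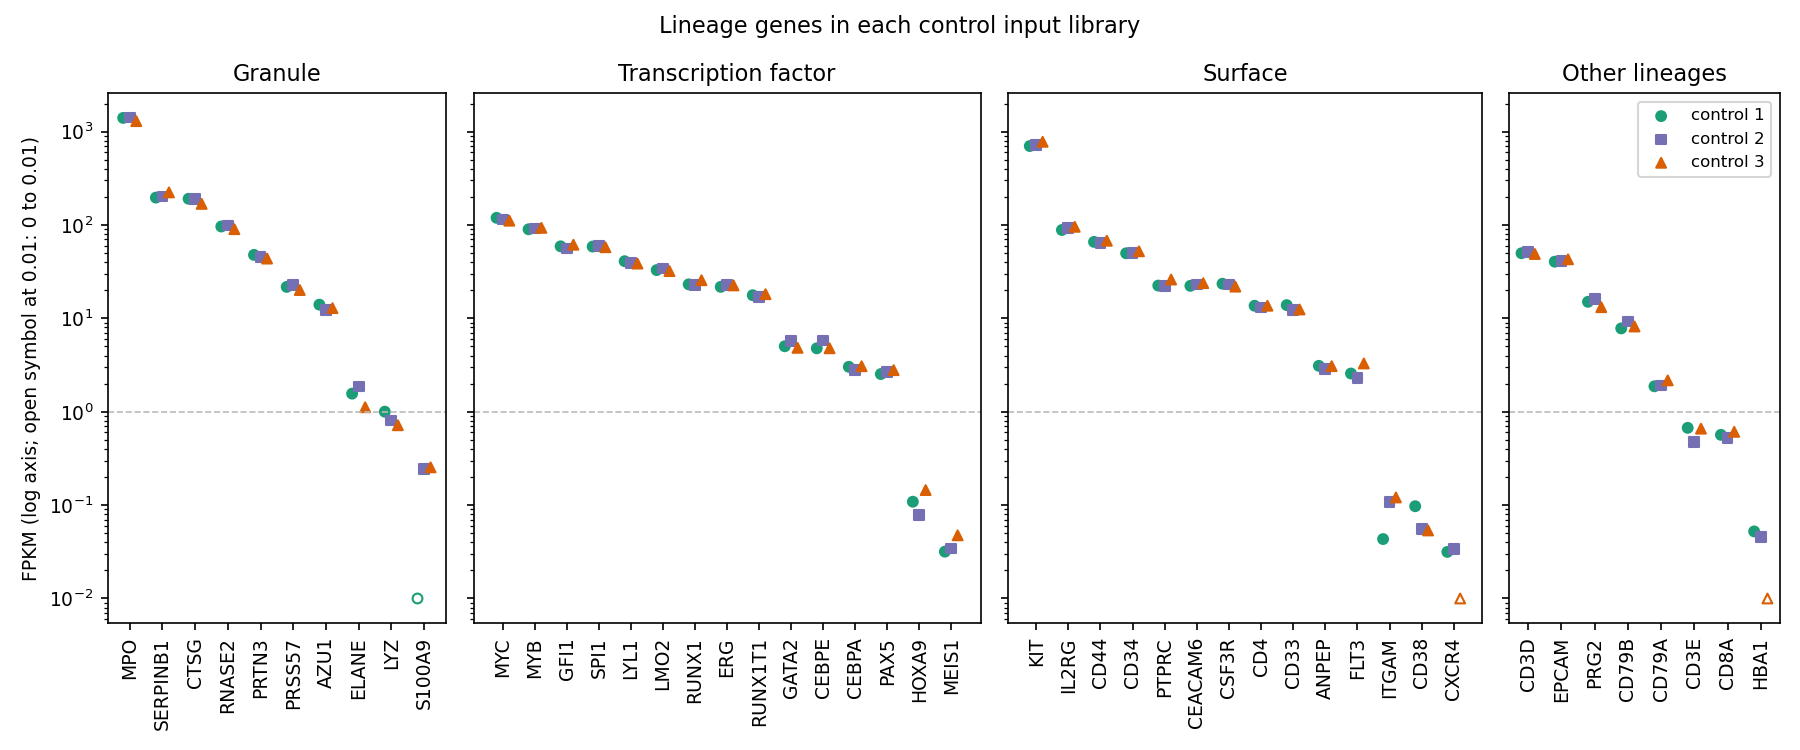
FPKM on a log axis of granule genes, transcription factors, surface genes and markers of other lineages in control 1 (circles), control 2 (squares) and control 3 (triangles), with a dashed line at 1 FPKM and open symbols for values from 0 to 0.01. MPO and KIT lie above 700 FPKM in every library, and HOXA9, MEIS1, CD38 and CXCR4 lie under 1.

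On the surface, KIT stood far above every other listed receptor. Of 14 stem and progenitor antigens 10 were expressed (71.4%, against 39.4% of all genes). CD34, the sialomucin used to isolate stem and progenitor cells, was at 49.8, 50.0 and 52.3 FPKM (50.7 ± 1.38), and KIT was 14.4 ± 0.414 times higher (SD, n = 3). CD44, the hyaluronan receptor, was at 66.0, 64.8 and 67.9 FPKM (66.2 ± 1.56). CD200, an inhibitory ligand, was at 15.4, 15.7 and 15.9 FPKM (15.7 ± 0.251), and FLT3, the other class III receptor kinase of progenitors, was at 2.57, 2.32 and 3.29 FPKM (2.73 ± 0.504). KIT was between 237 and 309 times higher than FLT3. CD38, lost in the most immature progenitors, was far below CD34, and PROM1 and THY1, antigens of stem cells, were at 0.0328, 0.0487 and 0 FPKM and 0.00896, 0 and 0 FPKM.

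Of 27 myeloid surface genes 17 were expressed (63.0%, against 39.4% of all genes), with a median of 2.26 FPKM. CEACAM6, a GPI-anchored adhesion molecule of granulocytes, led at 22.3, 23.1 and 23.8 FPKM (23.1 ± 0.753). CSF3R, the receptor for the granulocyte growth factor G-CSF, was next at 23.5, 23.1 and 21.9 FPKM (22.8 ± 0.839). CD33, the lectin targeted in myeloid leukaemia, was at 13.9, 12.4 and 12.5 FPKM (12.9 ± 0.849), and CD4 was at almost the same level, 13.7, 13.1 and 13.7 FPKM (13.5 ± 0.325). ANPEP (CD13), the other classic myeloid antigen, was at 3.10, 2.89 and 3.08 FPKM (3.02 ± 0.114). The beta-2 integrin chains of mature cells were low: ITGAM (CD11b) was at 0.0433, 0.108 and 0.121 FPKM and ITGAL at 0.0177, 0.0569 and 0.0380 FPKM, while their shared beta chain ITGB2 was at 9.08 ± 0.680 FPKM. The beta-1 integrins were present instead, with ITGB1 at 61.4 ± 3.30 and ITGA4 at 24.7 ± 1.02 FPKM. CXCR4, the marrow homing receptor, was at 0.0315, 0.0336 and 0 FPKM, and PTPRC, the pan-leucocyte antigen CD45, at 23.6 ± 2.18 FPKM.

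Markers of other cell types were at or near 0 with a few exceptions. Of 63 such markers with a matching row, counted without KIT and GATA2, 10 were expressed, against 39.4% of all genes. The median over the 63 was 0.0450 FPKM. CD3D, a chain of the T-cell receptor complex, was at 49.9, 51.8 and 48.9 FPKM (50.2 ± 1.48), but CD3E was at 0.673, 0.476 and 0.659 FPKM and CD3G and CD5 were listed at 0. EPCAM, an epithelial adhesion molecule, was at 40.5, 41.0 and 42.9 FPKM (41.5 ± 1.27), whereas the keratins KRT8, KRT18 and KRT19 were each under 1 FPKM in every library. PRG2, the eosinophil granule major basic protein, was at 15.1, 16.2 and 13.2 FPKM (14.8 ± 1.53), whereas EPX and CLC were listed at 0 in 2 libraries each. CD79B and CD79A, signalling chains of the B-cell receptor, were at 8.43 ± 0.761 and 1.98 ± 0.161 FPKM. Of the mast cell markers only KIT and GATA2 were expressed, and the enzymes TPSAB1, TPSB2, CPA3 and HDC were under 0.1 FPKM in every library. The globins HBA1 and HBA2 were under 0.1 FPKM as well.

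Of 12 genes of class I antigen presentation 11 were expressed, and of 10 class II genes 3 were, against 39.4% of all genes. B2M, the invariant chain of class I, was at 94.6, 95.3 and 93.3 FPKM (94.4 ± 0.996), and the nonclassical HLA-E was at 85.2, 87.5 and 81.8 FPKM (84.8 ± 2.86). HLA-C and HLA-B, classical class I genes, were at 16.9 ± 1.18 and 4.77 ± 0.390 FPKM, levels that depend on how fragments of these similar and polymorphic genes were assigned. The 3 expressed class II genes were CD74, the invariant chain, at 21.1, 19.6 and 18.9 FPKM (19.9 ± 1.11), HLA-DRA at 2.12, 1.43 and 1.53 FPKM (1.69 ± 0.373) and HLA-DPA1 at 1.19 ± 0.0753 FPKM. CIITA, the class II transactivator, was at 0.1999, 0.0985 and 0.265 FPKM.

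Among 21 cytokine receptors 17 were expressed (81.0%, against 39.4% of all genes). IL2RG, the common gamma chain of several interleukin receptors, was second to KIT at 88.5, 93.6 and 95.7 FPKM (92.6 ± 3.70). TNFRSF1A, the widely expressed receptor of tumour necrosis factor, was at 41.0, 39.8 and 40.5 FPKM (40.5 ± 0.600), whereas TNFRSF1B, its leucocyte counterpart, was listed at 0 in controls 1 and 2. CSF2RB, the beta chain shared by the receptors for GM-CSF and interleukin 3, was at 4.82, 5.59 and 5.09 FPKM (5.17 ± 0.390), with its partners CSF2RA at 1.24 ± 0.157 and IL3RA at 2.26 ± 0.323 FPKM. Downstream, 24 of 24 genes of the JAK, STAT and RAS pathways were expressed. GRB2, the adaptor that links receptors to RAS, was at 65.8, 65.5 and 70.2 FPKM (67.2 ± 2.63), and PTPN11 (SHP2), the phosphatase downstream of KIT, at 51.7, 52.2 and 58.9 FPKM (54.3 ± 4.02). STAT5A and STAT5B shared the STAT5 level almost evenly, at 54.9 ± 1.76% and 45.1 ± 1.76%. NRAS held 60.6 ± 3.19% of the summed RAS level, and HRAS held 18.0%, 15.9% and 10.8% of it in controls 1, 2 and 3.

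Glycolysis was carried by 1 or a pair of isozymes at most steps. The 21 genes of the pathway held 1.62%, 1.66% and 1.54% of the FPKM, and 17 were expressed, with a median of 50.0 FPKM, or 19.8 FPKM without the members that overlap another gene on the same strand. The entry step was mostly HK2, the inducible hexokinase, at 70.9, 78.0 and 75.9 FPKM (74.9 ± 3.68), against HK1, the common form, at 20.6, 20.3 and 18.4 FPKM (19.8 ± 1.20) and HK3, the form of mature neutrophils, at 0.598, 0.616 and 0.585 FPKM. HK2 held 78.6 ± 1.53% of the hexokinase level. PFKP, the platelet form of phosphofructokinase, was at 29.1, 28.9 and 26.6 FPKM (28.2 ± 1.40), PFKL, the liver form, at 16.4, 16.9 and 15.3 FPKM (16.2 ± 0.784) and PFKM, the muscle form, at 0.249, 0.161 and 0.185 FPKM. GPI, which lies between these steps, was at 47.0 ± 2.16 FPKM.

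ALDOA was at 171, 166 and 148 FPKM (162 ± 12.0), and ALDOC, the brain form of aldolase, at 49.4, 54.1 and 46.5 FPKM (50.0 ± 3.80), so ALDOC gave 23.6 ± 1.08% of the aldolase level. TPI1 was at 165 ± 7.63, PGK1 at 150.5 ± 3.07, PGAM1 at 79.4 ± 2.08 and PKM, which makes pyruvate, at 141 ± 5.18 FPKM. PGAM2, the muscle form of PGAM1, was under 0.1 FPKM in every library. ENO1 was at 319, 337 and 326 FPKM (327 ± 8.99) and held 99.0 ± 0.0492% of the enolase level, with ENO2 at 2.11 ± 0.187 and ENO3 at 1.20 ± 0.0448 FPKM. LDHA, which reduces pyruvate to lactate, was at 294, 312 and 311 FPKM (306 ± 10.2) and LDHB at 193, 193 and 194 FPKM (193 ± 0.667), a ratio of 1.58 ± 0.0482, while the testis form LDHC was listed at 0 in controls 1 and 2. Of the sugar carriers, SLC2A3 was at 12.7 ± 1.05, SLC2A1 at 6.38 ± 0.365 and the fructose carrier SLC2A5 at 4.72 ± 0.376 FPKM. The lactate carrier SLC16A1 was at 27.6 ± 2.28 FPKM.

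**Figure D3:**
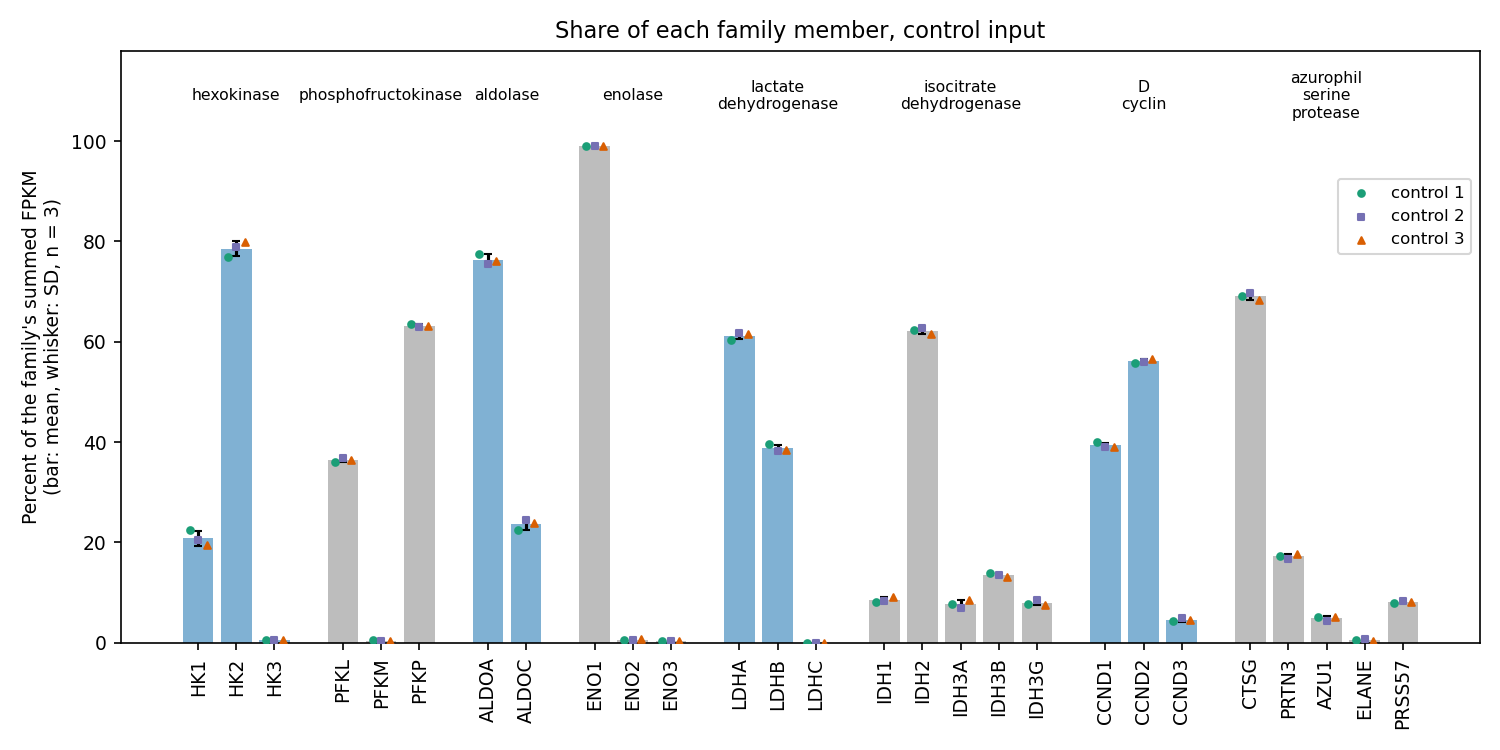
Percent of a family's summed FPKM held by each member in the control input libraries (bars, mean; whiskers, SD, n = 3; symbols, single libraries). HK2, ENO1 and CTSG lead their families in each of the 3 libraries.

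The mitochondrial pathways were expressed almost whole. Of 31 genes of pyruvate oxidation and the tricarboxylic acid cycle 29 were expressed, with a median of 15.1 FPKM. IDH2, the mitochondrial NADP-dependent isocitrate dehydrogenase, led at 117, 117 and 108 FPKM (114 ± 5.24) and held 62.2 ± 0.624% of the summed isocitrate dehydrogenase level, against 8.55 ± 0.561% for IDH1, the cytosolic form. PDK4, the kinase that shuts off pyruvate oxidation in fasting, was under 0.1 FPKM in every library. All 27 nuclear genes of complex I and all 29 of complexes III to V that were matched were expressed, with medians of 20.5 and 39.4 FPKM. ATP5F1B, the catalytic subunit of ATP synthase, was at 368, 387 and 394 FPKM (383 ± 13.5). The 7 matched genes of the pentose phosphate pathway were expressed too, with PGD, which makes NADPH, at 78.5 ± 4.503 FPKM.

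Serine and one-carbon metabolism, which feeds nucleotide and methyl group synthesis, was led by MAT2A. This enzyme makes S-adenosylmethionine, the methyl donor of m6A and other methylations, and was at 155, 148 and 168 FPKM (157 ± 10.4). PSAT1, the second enzyme of serine synthesis, was at 133, 127 and 146 FPKM (135 ± 9.78), 4.89 ± 0.566 times the level of PHGDH, the first enzyme, at 28.5, 28.3 and 26.3 FPKM (27.7 ± 1.19). The mitochondrial arm exceeded the cytosolic arm: SHMT2 was 18.4 ± 0.0961 times SHMT1, and MTHFD2 was 5.13 ± 0.265 times MTHFD1 (SD, n = 3). In amino acid metabolism GLUD1 and GLUL, which handle glutamate and glutamine, were at 78.6 ± 1.37 and 78.5 ± 3.74 FPKM, and the glutamine carrier SLC1A5 at 68.2 ± 2.54 FPKM. ASS1, which makes arginine precursors, was at 0.712, 0.425 and 0.480 FPKM.

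Lipid synthesis was well represented. SCD, the desaturase of stearate, was at 101, 106 and 117 FPKM (108 ± 7.98), ACLY, which makes cytosolic acetyl-CoA, at 99.7, 102 and 101 FPKM (101 ± 1.13) and FASN, fatty acid synthase, at 39.3 ± 3.26 FPKM. All 22 cholesterol genes were expressed, led by INSIG1, the sterol-sensing retention protein, at 79.9 ± 5.39 FPKM. CPT1A, the gate of fatty acid oxidation, held 93.2 ± 1.88% of the CPT1 level. Iron storage was dominated by FTL over FTH1, the heavy chain, at 119 ± 8.22 FPKM, and the transferrin receptor TFRC was at 37.3 ± 2.30 FPKM. HMOX1, the inducible haem oxygenase, was under 0.1 FPKM in every library. Of 21 redox genes 20 were expressed, led by GPX1, a peroxidase, at 153 ± 17.7 and SOD1 at 125 ± 6.70 FPKM. Levels within the list differed widely, with NQO1 and GCLM at 1.13 ± 0.0450 and 1.30 ± 0.320 FPKM. GCLC, GSR and TXNRD1 were at 4.74 ± 0.0391, 6.77 ± 0.585 and 23.3 ± 0.733 FPKM, and the factor NFE2L2 was at 9.17 ± 0.0399 FPKM. PRDX2, a cytosolic peroxidase, was at 0.219, 0.0448 and 0.0766 FPKM while its relatives PRDX1 and PRDX6 were at 103 ± 4.78 and 64.1 ± 4.93 FPKM, and PRDX2 lies over HOOK2 on the same strand.

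Protein synthesis took the largest share of the lists. The 80 matched ribosomal protein genes were all expressed and held 13.3%, 13.5% and 12.2% of all FPKM, with medians of 232 FPKM for the 47 of the large subunit and 236 FPKM for the 33 of the small subunit. NPM1, the nucleolar protein mutated in other leukaemias, was at 462, 459 and 497 FPKM (473 ± 21.2), and NCL, nucleolin, at 191, 185 and 186 FPKM (188 ± 3.50). All 20 tRNA synthetases were expressed, and TARS1, which charges threonine, led at 149, 145 and 162 FPKM (152 ± 9.10). Chaperones were led by HSP90AB1 and HSPA8, the constitutive HSP70, at 396, 403 and 387 FPKM (395 ± 7.83). Of 19 genes of endoplasmic reticulum stress and the amino acid response 18 were expressed. ATF4, the factor of the amino acid response, was at 185, 185 and 185 FPKM (185 ± 0.488). HSPA5 (BiP) was at 145 ± 5.60 and XBP1 at 81.0 ± 3.87 FPKM. DDIT4, ASNS, TRIB3 and DDIT3 were at 34.6 ± 3.48, 32.1 ± 1.45, 32.0 ± 1.22 and 19.4 ± 1.15 FPKM. The lowest of the list was CHAC1 at 0.251, 0.422 and 0.121 FPKM. All 22 proteasome and ubiquitin genes were expressed.

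The cells carried the messages of division. All 20 S-phase genes and all 20 mitosis genes were expressed, with medians of 23.7 and 26.6 FPKM. MCM3, of the replicative helicase, was at 88.2 ± 3.68, PCNA, the clamp of DNA polymerase, at 81.6 ± 0.414, TOP2A, the mitotic topoisomerase, at 113 ± 10.8 and MKI67 at 42.1 ± 2.31 FPKM. CDK4 and CDK6, the kinases of G1, were at 49.5, 49.1 and 49.7 FPKM (49.4 ± 0.317) and 44.8, 44.5 and 54.2 FPKM (47.8 ± 5.48). Their D cyclins were CCND2 (56.1 ± 0.403% of the D cyclin level) and CCND1 (39.3 ± 0.545%), with CCND3 at 4.58 ± 0.385%. Among inhibitors CDKN2C and CDKN1B were at 17.4 ± 1.36 and 15.4 ± 1.43 FPKM, whereas CDKN1A (p21) was at 0.989, 0.772 and 0.901 FPKM and CDKN1C was listed at 0.

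Of 16 genes of the BCL2 family 12 were expressed (75%, against 39.4% of all genes). MCL1, which protects from apoptosis and is short-lived, led at 33.0, 33.0 and 38.9 FPKM (35.0 ± 3.41), followed by BCL2L1 at 19.1 ± 1.31 and BCL2 at 15.8 ± 1.71 FPKM. PMAIP1 (NOXA), which opposes MCL1, was at 14.1 ± 2.25 FPKM, BBC3 (PUMA) at 0.153, 0.286 and 0.198 FPKM, and BOK was listed at 0. All 29 chromatin regulators were expressed. DNMT1, the maintenance DNA methyltransferase, held 81.3 ± 0.618% of the DNMT level and TET1 and TET3 led TET2, which held 11.0 ± 0.139% of the TET level. Of 18 genes of the m6A machinery 17 were expressed. WTAP, the scaffold of the writer complex and the gene targeted elsewhere in the study, was at 11.5, 11.2 and 11.7 FPKM (11.5 ± 0.234), METTL3, the catalytic subunit, at 7.23, 7.44 and 7.84 FPKM (7.51 ± 0.310) and METTL14, its partner, at 4.61, 4.18 and 4.98 FPKM (4.59 ± 0.399). The reader IGF2BP2 was the highest of the group at 44.8, 42.6 and 47.7 FPKM (45.0 ± 2.54), and IGF2BP1 was under 0.1 FPKM in every library.

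Some genes that many cultured lines express strongly were low here. VIM, vimentin, the intermediate filament of mesenchymal and most blood cells, was at 0.235, 0.152 and 0.245 FPKM, and LMNA, the A-type lamin, at 0.337, 0.302 and 0.381 FPKM, while the other cytoskeletal genes ACTG1, ACTB and TUBB were at 543 ± 38.2, 531 ± 3.95 and 455 ± 11.4 FPKM. Of 20 cytoskeletal genes 18 were at 10 FPKM or more in every library, so these were the exceptions. FOS, an immediate early gene, was at 0.152, 0.0812 and 0.325 FPKM, and JUNB at 16.8 ± 1.01 FPKM. Among 21 interferon-induced genes 11 were expressed (52.4%, against 39.4% of all genes). IFITM3, an antiviral membrane protein, was at 122, 113 and 94.6 FPKM (109.8 ± 13.99), and IFITM2 and IFITM1 were at 77.9 ± 8.48 and 69.6 ± 7.16 FPKM, whereas MX1 was at 0.189, 0.187 and 0.144 and IFI27 at 0.0317, 0.0119 and 0.0286 FPKM. Replication-dependent histones, whose messages normally lack a poly(A) tail, were expressed in 1 of 17 cases, against 8 of 9 replication-independent histones, led by H2AZ1 at 121, 120.3 and 120.0 FPKM (121 ± 0.643).

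The spread between libraries was small for expressed genes. Over the 11281 genes of mean FPKM 1 or more the median CV was 7.45%, the median SD of log2(FPKM + 1) was 0.0881, and 68.2% of the genes had a CV under 10%. The median CV depended on level: it was 131% between 0 and 0.1 FPKM, 34.3% up to 1, 8.55% between 1 and 10, 5.74% between 10 and 100 and 4.76% at 100 or more. Of the 7877 genes in the lowest of these classes 5581 were listed at 0 in some library, so single values under 0.1 FPKM carry little information.

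A gene was called uneven when 1 library was over 1.5-fold above or below both others. Among 6281 genes of mean FPKM 5 or more 88 were (1.4%). Control 3 was the odd library for 54 of them, above for 25 (0.398%) and below for 29 (0.462%). Of the 25 above, 17 were mitochondrially encoded, such as MT-ND4, a subunit of complex I, at 77.2, 75.2 and 173 FPKM (108 ± 55.9), and MT-CO1, a subunit of complex IV, at 86.8, 87.2 and 164 FPKM (113 ± 44.6). All 13 mitochondrially encoded messages were highest in control 3. So were 57.9% of the 11260 genes of mean FPKM 1 or more listed above 0 in every library. The RNAs normally without a poly(A) tail went the other way, since 11 of 12 were lowest in control 3 and 10 of 12 highest in control 1. The shares of all genes lowest in control 3 and highest in control 1 were not computed. Among the 12 are several copies of RNU1 and of RN7SL, whose fragments may be shared, so the 12 are not independent. RN7SK, a regulator of transcription elongation, was at 23.4, 15.3 and 5.78 FPKM (14.8 ± 8.81), and RNU1-1, a spliceosomal RNA, at 55.3, 22.9 and 10.1 FPKM (29.4 ± 23.3).

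The 10 genes of largest CV included a readthrough locus, copies of other genes, spliceosomal RNAs and mitochondrially encoded RNAs. BLOC1S5-TXNDC5, a readthrough locus, was listed at 51.8, 0 and 0 FPKM, while TXNDC5, a chaperone inside the same span, was at 23.7, 60.4 and 59.3 FPKM in controls 1, 2 and 3. BIVM-ERCC5, a readthrough locus outside these 10 and named after its values were seen, was at 0, 13.3 and 0.000735 and ERCC5, a repair nuclease, at 10.3, 1.79 and 11.3 FPKM. In both pairs the library with a high readthrough value was the one with a low value of the single gene. SNRPGP10 and SNRPGP2, copies of SNRPG, were at 61.5, 12.2 and 11.1 and 20.2, 0.818 and 2.21 FPKM, with SNRPG at 22.8, 37.0 and 34.2 FPKM. Beside RNU1-1, the other names among the 10 were RNVU1-7 at 40.2, 0.479 and 0.328, RNU1-3 at 43.4, 12.9 and 15.5, MT-TY at 0, 0 and 15.2, MT-TS1 at 0, 20.3 and 22.5, MT-ND3 at 3.76, 3.67 and 11.2 and MTATP6P1, a nuclear copy of mitochondrial sequence, at 12.1, 9.38 and 32.1 FPKM. Pseudogenes made up 38.6% of the 88 uneven genes and 3.91% of the others of mean FPKM 5 or more, and genes overlapping another on the same strand 42.0% and 29.1%.

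Control 3 also differed mildly over many genes, by gene length on the chromosome. The log2 of a library's FPKM over the geometric mean of the other two had a median of 0.09 for control 3 over 11260 genes, and of −0.04 and −0.05 for controls 1 and 2. Among genes of mean FPKM 5 or more it was −0.03 in control 3 in the fifth of genes with the shortest span (68 to 8759 bp) and 0.14 in the fifth with the longest (78826 bp and over). Spearman's rho with span was 0.361 in control 3, −0.232 in control 1 and −0.281 in control 2, across 6278 genes that share libraries and are not independent. By list, the median in control 3 was low for MHC class I (−0.12) and for the nuclear genes of complex I (−0.11), and was 0.18 for cell cycle control. The cause was not tested.

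**Figure D4:**
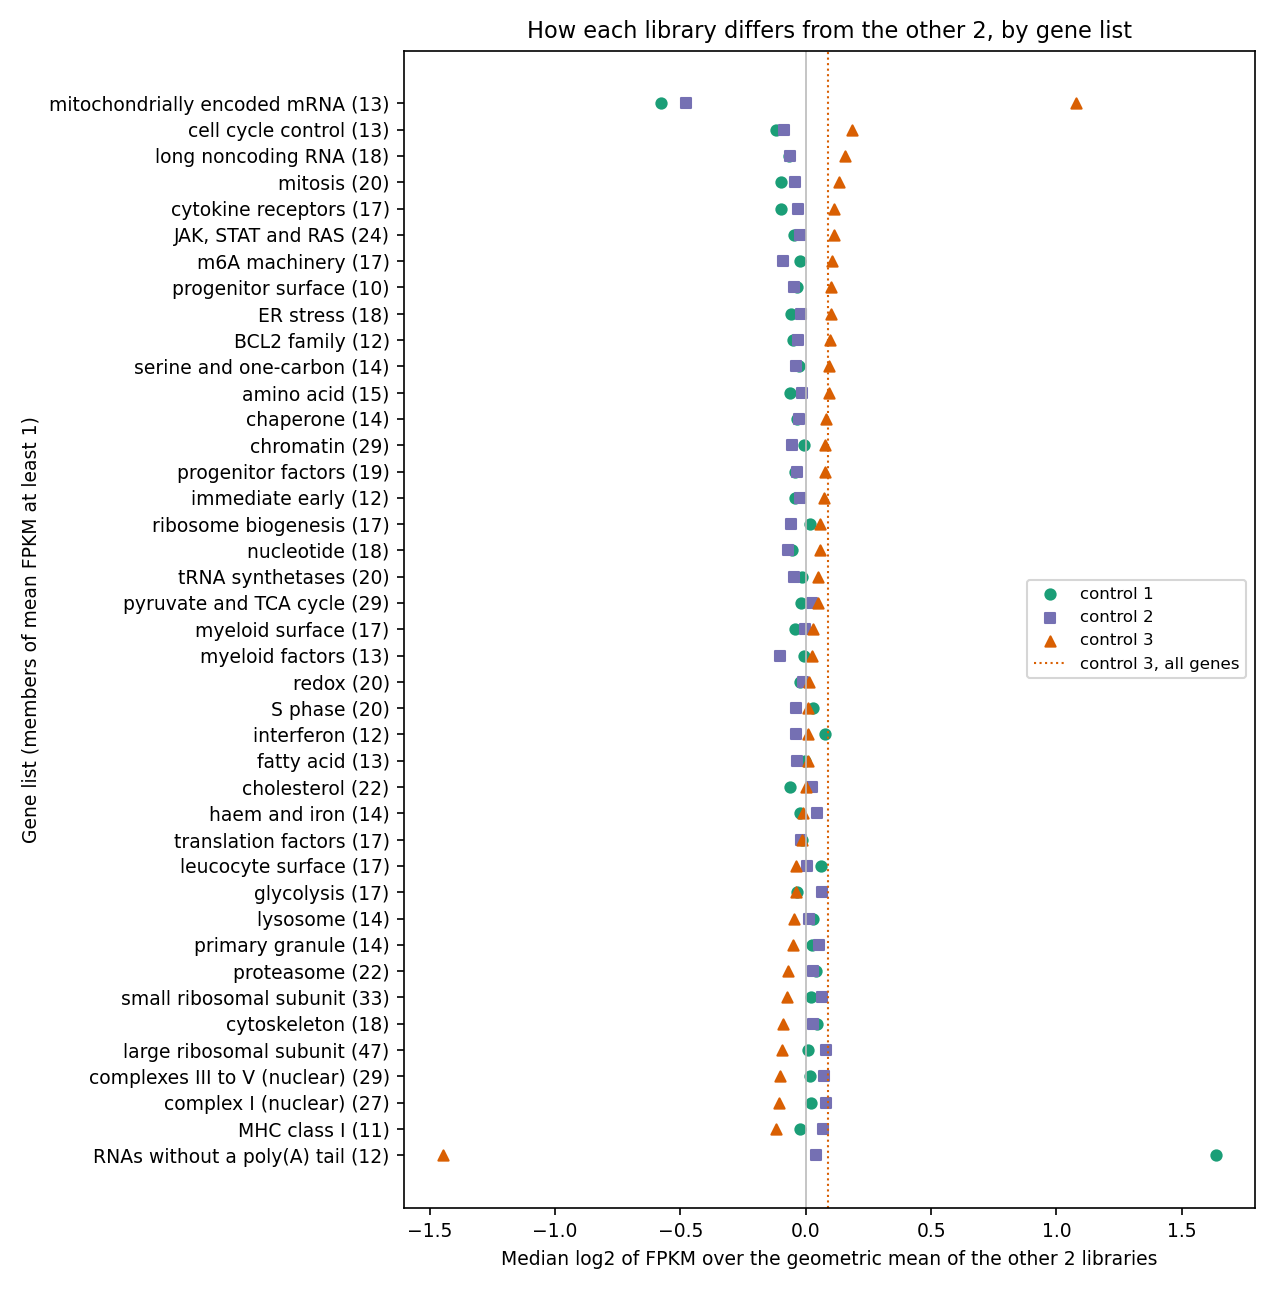
Median log2 of FPKM over the geometric mean of the other two libraries (x axis), for 41 gene lists with 10 or more members of mean FPKM 1 or more (number in brackets), in each control input library. Most lists lie within 0.2 of 0, while the 13 mitochondrially encoded messages and the 12 RNAs without a poly(A) tail lie far from it in opposite directions for control 3.

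Promoter composition and the share of genes with an m6A peak differed between classes of level. Of genes listed at 0, 48.3% had fewer than 10 CG in the 250 bases before the start, against 10.4% between 1 and 10 FPKM and 4.69% of the 128 genes with an entry at 100 FPKM or more. The motif TATAAA, searched on both strands over the whole window, was found in 6.73% of all 9633 promoters, in 12.4% of those of genes listed at 0, in 4.31% of those of genes between 1 and 10 FPKM and in 14.1% of those at 100 or more. CCGGAA, on either strand, stood in 24.1% of all promoters, in 12.0% of those of genes listed at 0 and in 35.9% of those at 100 FPKM or more. A match is a description of letters and no evidence of binding.

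The deposited control list of m6A peaks, which sets antibody-enriched RNA against these input libraries, assigned a peak to 14977 of the 27411 genes (54.6%). The share was 18.6% (95% Wilson interval 17.0% to 20.3%) among genes listed at 0, 78.2% (77.2% to 79.1%) between 1 and 10 FPKM and 57.4% (50.9% to 63.6%) at 100 FPKM or more, so it was highest at middle levels. The intervals cover counting error over genes only. The list held 594 peaks on genes listed at 0 in every input library. How far the share at each level depends on peak detection was not tested. Among the 20 most abundant genes 9 had a peak. MPO had 2 and EEF1A1 had 4, the highest at a fold enrichment of 12.4 in the authors' deposited table, whereas GAPDH, KIT, HSP90AB1 and FTL had 0. MYC had 4, RUNX1 had 8 and CD34 had 2. Peaks in the 5′ UTR made up 4.71% of the peaks on genes listed at 0 and 32.8% of those at 100 FPKM or more.

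**Figure D5:**
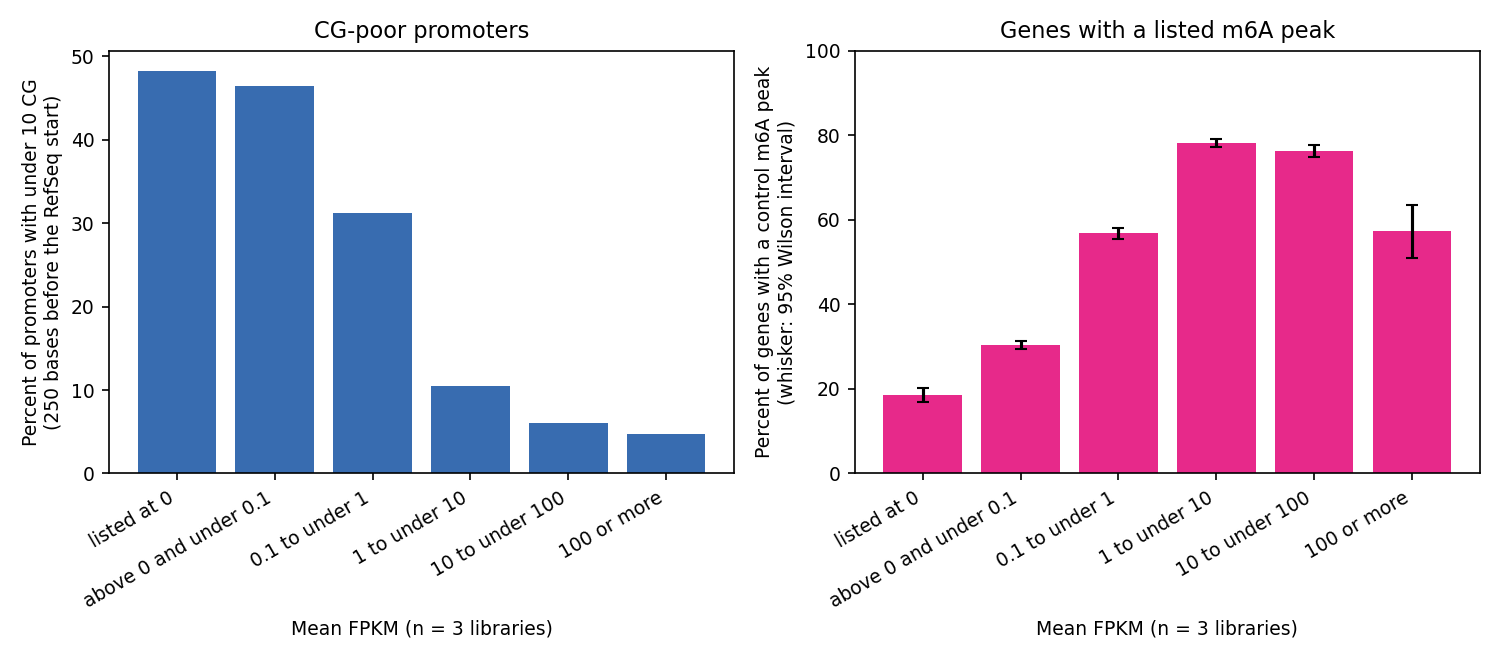
By class of mean FPKM in the control input libraries, percent of promoters with fewer than 10 CG in 250 bases (left) and percent of genes with a listed control m6A peak (right; whiskers, 95% Wilson interval). The first is 48.3% for genes listed at 0 and 4.69% at 100 FPKM or more; the second peaks at 78.2% between 1 and 10 FPKM.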

How the data were processed

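RNA of Kasumi-1 cells with a scramble control hairpin was read in 3 input libraries. The deposited expression table gives FPKM values made by the authors, scaled to gene length and library total, so a change of all RNA alike cannot be seen. No counts could be recovered, so depth is unknown and levels carry no counting error. HISAT2, ChIPseeker, fastp and HOMER are listed without versions in the submitters' processing notes. The counter, the genome build, the annotation and the strand setting were not given in the sources used here, though the labels' protocols describe strand-marked libraries. The control peak list is the authors' own, 1 value per peak: a p-value, used to take the peaks beyond its median, and a ratio (fold enrichment of IP against input), both deposited with no replicate.

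Means, SD and CV over the 3 libraries were computed with Python 3.11.15, numpy 2.4.6 and pandas 2.3.3, and the functions were tested on simulated data. With 1 group there was no comparison and no test. No filter was set on levels, and spread was read at a mean of 1 FPKM or more, uneven genes at 5. Genes were matched by symbol or by a unique RefSeq synonym, as 20592 of the 27411 were. Of 1037 listed genes 968 were matched, and the rest were not analysed here. Some measured genes, and 1 gene list, are not reported here. The 62 gene lists, and the libraries themselves, were chosen with earlier results of these data known. Names follow a rule: the 20 highest genes with a symbol, the 10 of highest CV at a mean of 5 FPKM or more, up to 6 leading members of a list with those under 0.1 FPKM in every library, all glycolysis isozymes and a set of lineage genes. Some further list members are named, chosen after their values were seen. Promoters are the 250 bases before the start in RefSeq (GRCh38.p14), for 9633 genes with 1 entry.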

Additional observations from a re-analysis of the deposited data

How the results depend on the processing

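No paired analysis was possible because the libraries form 1 group and no test was made. The number of genes at 1 FPKM or more in every library was 10788 and became 5984 at a threshold of 5 FPKM. It was 12243 at 0.5 FPKM and 14274 after rescaling each library to a sum of 1000000. Leaving out 1 library in turn gave 10926 to 10960 genes. The median CV of 7.45% became 20.95% with no filter except a mean above 0, and 3.91% to 7.32% when 1 library was left out, the lowest being without control 3. The 88 uneven genes became 42 at a ratio of 2 and 485 when genes of mean FPKM 1 or more were taken. The share of genes between 10 and 100 FPKM with a control peak was 76.3%, and 65.1% with the peaks on the stricter side of the median p-value. Their mean CG count in the promoter was 22.6 and, with 1 library left out, 22.7 in each case (22.67 to 22.70). The share of the 20 highest genes (9.91%) ran from 9.72% to 10.2% and that of the ribosomal protein genes (12.98%) from 12.7% to 13.4% when 1 library was left out. Of 62 list medians 32 were at 10 FPKM or more, 46 after rescaling. Leaving out members that overlap another gene on the same strand moved 32 of the 62 medians by more than the SD between libraries, that of glycolysis from 50.0 to 19.8 FPKM. Depth is unknown, so levels under 0.1 FPKM are not told apart from 0.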
